A study of Mus musculus with 28 samples.

Results

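Broad constant 5hmC domains were defined as stretches of at least 4000 bp in which all 6 deposited peak lists of 5-hydroxymethylcytosine (5hmC) held a peak. Peaks of the 6 lists on chromosomes 1 to 19 were merged wherever they overlapped by at least 1 bp, which gave 205075 regions. Of these, 61524 held a peak in every list and are called constant regions here, and 1265 of the constant regions were at least 4000 bp long. These 1265 domains were 0.617% of all regions and 2.06% of the constant ones, and with a summed length of 6.8 Mb they held 3.63% of all 5hmC region length. The domains were chosen by the width of the merged peaks and by presence in every list, so neither is a finding.

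The libraries came from LK bone marrow cells of C57BL/6 mice aged 6 to 10 weeks. The study compared wild-type mice (WT), mice without Tet2 (Tet2KO) and mice without both Tet1 and Tet2 (double knockout, DKO), with 2 libraries of 5hmC per genotype. 5hmC was captured by hMe-Seal, in which the mark is tagged chemically and pulled down, and 5-methylcytosine (5mC) by MeDIP, in which an antibody pulls down methylated DNA. Lists of 5mC peaks were used for WT 1, WT 2, Tet2KO 2, DKO 1 and DKO 2, and the 17 RNA-seq samples of the series were not analysed here. The sources used here do not give the mutant alleles, the sorting markers behind the name LK or the number of animals per library, so the spread between the libraries of a genotype may be technical. All positions are in the mouse build mm9, counted from 1.

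TET proteins are dioxygenases that oxidise 5mC to 5hmC and then to further oxidised bases, a route by which DNA can lose methylation. Tet2 is the family member best known in blood, where its loss is a frequent event in myeloid disorders, and Tet1 and Tet3 carry out the same chemistry. 5hmC is known to accumulate over gene bodies and enhancers, and both captures return fragments, so a peak marks a stretch enriched for a base and not single modified positions.

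The 6 lists held between 128471 and 143960 peaks each. Their median peak width ran from 598 bp in Tet2KO 2 to 728 bp in WT 1, and both Tet2KO lists and DKO 2 had narrower peaks than WT 1, WT 2 and DKO 1. Read depth is not known, and depth moves both the number and the width of called peaks. Its part in the differences between libraries described here was not tested.

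The domains were mostly little longer than the minimum. Their median width was 4833 bp, with quartiles of 4318 and 5786 bp, and 704 of the 1265 were under 5000 bp. Another 292 measured 5000 to under 6000 bp, 186 measured 6000 to under 8000 bp, 57 measured 8000 to under 10000 bp and 26 were 10000 bp or longer. The peaks in them also scored high: the median of the highest peak score per domain lay between 561 and 680 in the 6 lists, against 142 to 162 in the other constant regions. In the constant regions of 2000 to under 4000 bp it was 270 to 308, so it rose with width. Wider regions held more peaks, and the highest of more scores is higher by count alone. The authors' score has the form of -10 times the log10 of the peak's p-value.

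The widest domain, on chr8:123065105-123087814, was 22710 bp long. Peaks covered 95.8% of it in WT 1, 96.3% in WT 2, 94.6% in Tet2KO 1, 94.8% in Tet2KO 2, 99.4% in DKO 1 and 98.2% in DKO 2, so every library had it almost fully covered and both DKO libraries stood above the other 4. It also held the longest stretch of any domain that was covered without a break in all 6 lists, 6721 bp. A further 4 domains completed the 5 widest. They lay on chr11:95205506-95222671 (17166 bp), chr13:114389467-114406206 (16740 bp), chr8:126796111-126812755 (16645 bp) and chr8:13658856-13674379 (15524 bp). In the last of these the DKO libraries covered 96.3% and 96.0%, the WT libraries 83.9% and 86.2% and the Tet2KO libraries 82.0% and 80.9%.

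At the width threshold, the narrowest domains were 2 of 4000 bp, on chr8:97057640-97061639 and chr10:80879857-80883856, and 1 of 4002 bp on chr18:60866931-60870932. The constant regions that just missed it, by 1 or 2 bp, were chr8:120067100-120071098, chr18:83089389-83093387 and chr11:82668645-82672642. Coverage in single libraries ran from 69.1% to 97.0% just inside the threshold and from 49.3% to 99.4% just outside it.

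The first question was how much of the domains each genotype covered with 5hmC peaks. Peaks covered 88.1% of the summed domain length in WT 1 and 85.6% in WT 2, 79.1% in Tet2KO 1 and 77.7% in Tet2KO 2, and 87.7% in DKO 1 and 82.2% in DKO 2. Both Tet2KO libraries lay below the other 4, while DKO 1 fell between the WT libraries and DKO 2 below them. In length this was 5.99 and 5.82 Mb for WT, 5.38 and 5.29 Mb for Tet2KO and 5.96 and 5.59 Mb for DKO.

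The genotype means were 86.8% ± 1.78 in WT, 78.4% ± 0.968 in Tet2KO and 84.9% ± 3.87 in DKO (SD, n = 2 each). Tet2KO minus WT was -8.42 percentage points, DKO minus WT was -1.91 points and DKO minus Tet2KO was 6.5 points. The DKO and WT means differed by less than the spread between the DKO libraries. Over the 4 knockout libraries against the 2 of WT, the difference was -5.16 points. An exact two-sided permutation test over the 15 splits gave p = 0.2 (Benjamini-Hochberg adjusted p = 0.48, smallest possible p = 0.0667). This test could not reach 0.05 for any quantity, whatever the difference. It also pools DKO with Tet2KO, so Tet2KO against WT alone was not tested by it. A slope over the number of Tet genes lost was not separated from 0 (exact permutation p = 0.711, adjusted p = 0.756, 90 assignments, smallest possible p = 0.0222). With 2 libraries per genotype, the middle group, Tet2KO, has no weight in this slope. The slope therefore restates DKO minus WT and does not test Tet2KO. Adjustment ran over the 6 quantities tested in this way. Leaving out DKO 2 turned DKO minus WT to 0.824 points, and leaving out DKO 1 gave -4.65 points. In every genotype the library numbered 1 covered more than that numbered 2, and DKO was below WT at each number. Leaving out 1 library thus also sets unlike numbers against each other.

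The same order of libraries appeared outside the domains. In the other 60259 constant regions, peaks covered 81.5% and 78.5% for WT, 73.8% and 71.1% for Tet2KO and 80.8% and 74.8% for DKO. The ratio of coverage in the domains to coverage in the other constant regions was 1.081 and 1.090 for WT, 1.072 and 1.094 for Tet2KO and 1.084 and 1.099 for DKO. These ratios overlapped between all 3 genotypes, and the knockouts against WT gave an exact permutation p of 0.867. The ratios thus showed no difference in coverage particular to the domains, and the test could not have detected one at 0.05.

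**Figure D1:**
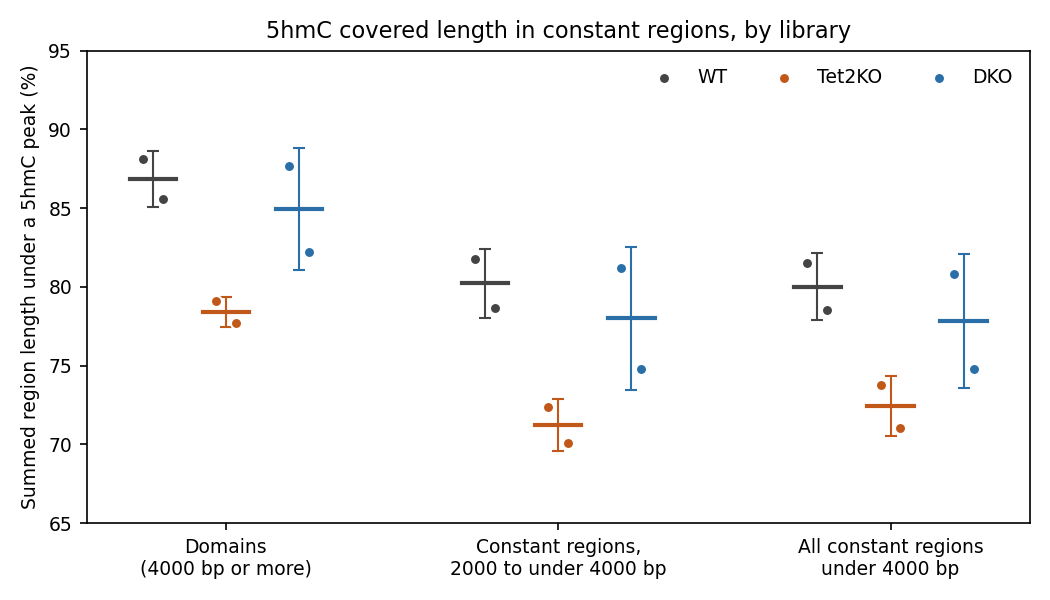
Percent of the summed length of 3 sets of constant regions (vertical axis, from 65 to 95%) that lies under a 5hmC peak, with 1 point per library coloured by genotype and a horizontal line at each mean and bars of 1 SD (n = 2). In the domains the Tet2KO libraries lie at 79.1% and 77.7%, below the other 4 libraries, and the same order of genotypes is seen in the narrower constant regions.

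Domain by domain, coverage in both Tet2KO libraries was below that in both WT libraries for 572 of the 1265 domains (45.2%), against 31.7% of all 61524 constant regions. It was above both for 70 domains (5.53%), against 8.63% of all constant regions. The median difference was -7.14 points in the domains, -7.93 points in the constant regions of 2000 to under 4000 bp and -6.35 points in the other constant regions as a whole. The domains thus had a larger share with separated libraries but a median difference close to that of narrower regions. Their coverage also varied less between libraries of 1 genotype: the within-genotype SD on the arcsine square root scale was 0.132 in the domains and 0.167 to 0.203 in narrower constant regions. Differences beyond 20 points below WT were found in 15.3% of the domains and 18% of the other constant regions.

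For DKO against WT, 316 domains (25.0%) had both DKO libraries lower, against 22.5% of all constant regions. A further 210 domains (16.6%) had both higher, against 14.8% of all constant regions. Both shares were near the background. For DKO against Tet2KO, 451 domains (35.7%) were higher in both DKO libraries, against 25.6% of all constant regions, and 61 (4.82%) were lower, against 8.97%. Each pair of these comparisons shares the libraries of 1 genotype, so their counts are not independent of each other.

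A limma fit over all 61524 constant regions, on the arcsine square root of the covered fraction, called 0 of the 1265 domains in any of the 3 contrasts at a Benjamini-Hochberg adjusted p under 0.05, and 0% of all constant regions. The smallest limma adjusted p-values were 0.504 for Tet2KO against WT, 0.775 for DKO against WT and 0.927 for DKO against Tet2KO. At an unadjusted p under 0.05, 98 domains (7.75%, against 8.85% of all constant regions) differed between Tet2KO and WT. Of these, 95 were lower in Tet2KO (7.51%, against 7.83%) and 3 higher (0.237%, against 1.02%). For DKO against WT there were 33 (2.61%, against 6.36%), 26 of them lower in DKO (2.06%, against 4.10%) and 7 higher (0.553%, against 2.26%). For DKO against Tet2KO there were 44 (3.48%, against 5.36%), 43 of them higher in DKO (3.40%, against 4.50%) and 1 lower (0.0791%, against 0.857%). In this fit none of these shares exceeded that of all constant regions, but the order turned for Tet2KO against WT on the untransformed fraction (11.7% of domains, against 9.30%). With the prior variance trended on region width, an alternative chosen after seeing the data, it turned in all 3 contrasts (17.9% against 8.85%, 9.80% against 6.56% and 11.1% against 5.10%). No domain was called in either fit. In simulated data for Tet2KO against WT, this fit recovered 0 of 200 domains whose coverage was lowered from 86.4% to 22.4% and 130 of 200 (65%) lowered to 8.34%. Only 200 of the 61524 regions were changed in each simulation, and recovery after adjustment depends on how many regions change. In that setting, with 2 libraries per genotype, the fit detected only near-complete loss of coverage. A peak in every list leaves little room for such a loss.

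The 3 domains with the smallest limma p in each contrast and direction are given as values. None of them passed adjustment, and they are not always those with the largest difference in points. On chr7:133924821-133929011 (4191 bp), peaks covered 96.3% and 94.4% for WT, 34.4% and 25.1% for Tet2KO and 56.0% and 54.1% for DKO. All 4 knockout libraries lay far below WT, and the peaks that remained in Tet2KO lay away from both ends of the domain (limma difference -0.779 ± 0.205 SE on the arcsine scale, adjusted p = 0.504).

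On chr6:121274832-121279373 (4542 bp), coverage was 90.4% and 96.3% for WT, 30.8% and 49.0% for Tet2KO and 91.8% and 87.0% for DKO. Here only the Tet2KO libraries were low, and this domain was also among the 3 with the smallest p for DKO above Tet2KO. No 5mC peak touched it in any of the 5 lists. The third domain by p among those lower in Tet2KO, on chr17:31981489-31988955 (7467 bp), was covered to 97.1% and 98.4% for WT, 71.0% and 49.9% for Tet2KO and 90.3% and 94.8% for DKO.

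Fewer domains went the other way. On chr12:56564993-56569294 (4302 bp), coverage was 60.4% and 55.4% for WT, 92.8% and 99.1% for Tet2KO and 94.1% and 89.3% for DKO. All 4 knockout libraries were above both WT libraries, and among the domains higher than WT it had the smallest p in both knockouts. It held the longest stretch covered in all 4 knockout lists and in neither WT list, 1113 bp at 56565085 to 56566197. The next smallest p-values among domains higher in Tet2KO were on chr15:66796134-66800192 and on chr1:182334850-182339603, with genotype mean differences of 40.2 and 28.1 points.

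Among domains lower in DKO than in WT, the smallest p-values were on chr19:32578994-32583169, chr11:117620515-117624642 and chr14:119035050-119040105. The chromosome 19 domain was covered to 96.0% and 95.9% for WT, 81.6% and 77.3% for Tet2KO and 50.2% and 53.1% for DKO, an order of WT, Tet2KO and DKO with no overlap. The chromosome 11 domain had the same order, with 99.6% and 93.3% for WT, 64.1% and 57.7% for Tet2KO and 49.8% and 52.7% for DKO. So did the chromosome 14 domain, with means of 98.1%, 87.2% and 69.5%.

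After the chromosome 12 domain, the smallest p-values among domains higher in DKO than in WT were on chr9:44294682-44300230 and chr13:52914418-52918701. DKO minus WT was 17.4 points in the first and 27.8 points in the second, and Tet2KO lay between WT and DKO in both. For DKO against Tet2KO, the smallest p-values among higher domains, besides the one on chromosome 6, were on chr2:93291546-93295694 (17.7 points) and chr5:121592620-121597225 (45.5 points). Among lower domains, besides that on chromosome 19, they were on chr3:97810018-97814285 (-37.9 points) and chr2:174293575-174298339 (-33.8 points). In the chromosome 3 domain the difference rested mainly on DKO 2, which covered 24.6% against 69.4% in DKO 1.

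**Figure D2:**
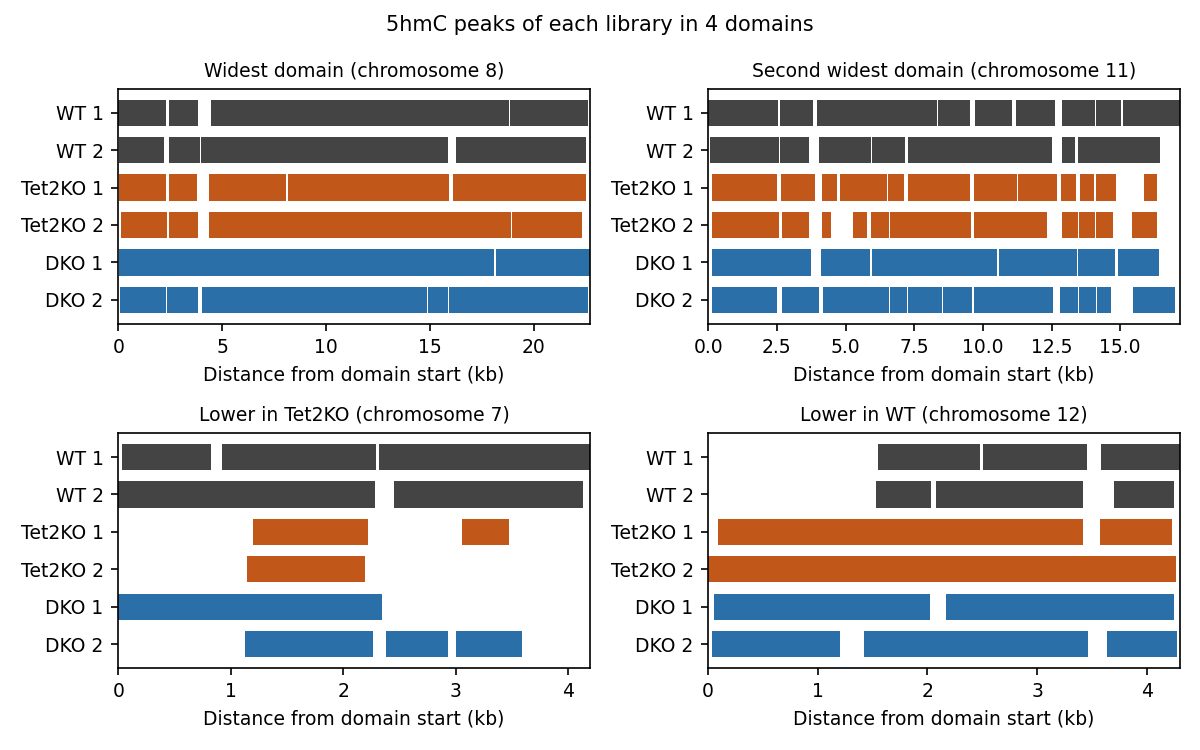
Peaks of each 5hmC library (one row per library, coloured by genotype) in 4 domains, drawn to scale against the distance from the domain start in kb. The widest domain on chromosome 8 is nearly filled in all 6 libraries, the chromosome 11 domain is cut into 7 to 13 peaks, the chromosome 7 domain keeps only inner peaks in Tet2KO, and the left end of the chromosome 12 domain is empty in both WT libraries.

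The second question was how the domains were split, since a domain can be 1 long peak or a row of shorter ones. WT 1 and WT 2 held 2.57 and 2.82 peaks per domain, Tet2KO 1 and Tet2KO 2 held 3.0 and 3.23, and DKO 1 and DKO 2 held 2.54 and 3.12. The Tet2KO libraries were above both WT libraries, and the DKO libraries spanned the WT values. Means were 2.69 ± 0.179 in WT, 3.11 ± 0.163 in Tet2KO and 2.83 ± 0.404 in DKO (SD, n = 2 each). The knockouts minus WT difference was 0.276 peaks (exact permutation p = 0.333, adjusted p = 0.48), in a test that could not reach 0.05. The sign of DKO minus WT, 0.135 peaks, depended on DKO 2, without which it was -0.151.

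A domain is called unbroken in a list that held a single peak in it, whatever share of the domain that peak covered. The chromosome 7 domain named above thus counted as unbroken in Tet2KO 2, where 25.1% of it was covered. Domains covered in full were at most 0.870% in any library. A domain was 1 unbroken peak in 180 cases (14.2%) in WT 1, 144 (11.4%) in WT 2, 99 (7.83%) in Tet2KO 1, 60 (4.74%) in Tet2KO 2, 199 (15.7%) in DKO 1 and 78 (6.17%) in DKO 2. DKO 1 had the most unbroken domains of all libraries and DKO 2 fewer than either WT library. Domains with 4 or more peaks numbered 206 and 291 for WT, 353 and 431 for Tet2KO and 205 and 421 for DKO. The difference in unbroken share between the knockouts and WT, -4.19 points, gave an exact permutation p of 0.4 (adjusted p = 0.48).

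Between Tet2KO and WT, both Tet2KO libraries had more peaks than both WT libraries in 200 domains (15.8%, against 2.55% of all constant regions), and fewer in 39 (3.08%, against 0.990%). For DKO against WT, more peaks were found in 119 domains (9.41%, against 2.00%) and fewer in 67 (5.30%, against 1.21%). DKO had more peaks than Tet2KO in 39 domains (3.08%, against 1.22%) and fewer in 141 (11.1%, against 1.75%). Most narrower constant regions held a single peak in a library, and both directions were more frequent in the domains. Within the domains, more peaks outnumbered fewer peaks in Tet2KO by 200 to 39.

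The unbroken state was compared between genotypes in the same way. Of the domains, 67 were unbroken in both WT libraries, 19 in both Tet2KO libraries and 45 in both DKO libraries. Unbroken in both WT and split in both Tet2KO were 34 domains (2.69%, against 1.97% of all constant regions), and 4 were the reverse (0.316%, against 0.829%). Unbroken in both WT and split in both DKO were 27 (2.13%, against 1.64%), and 11 were the reverse (0.870%, against 0.990%). Unbroken in both DKO and split in both Tet2KO were 20 domains (1.58%, against 1.31%), and 5 were the reverse (0.395%, against 1.02%).

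**Figure D3:**
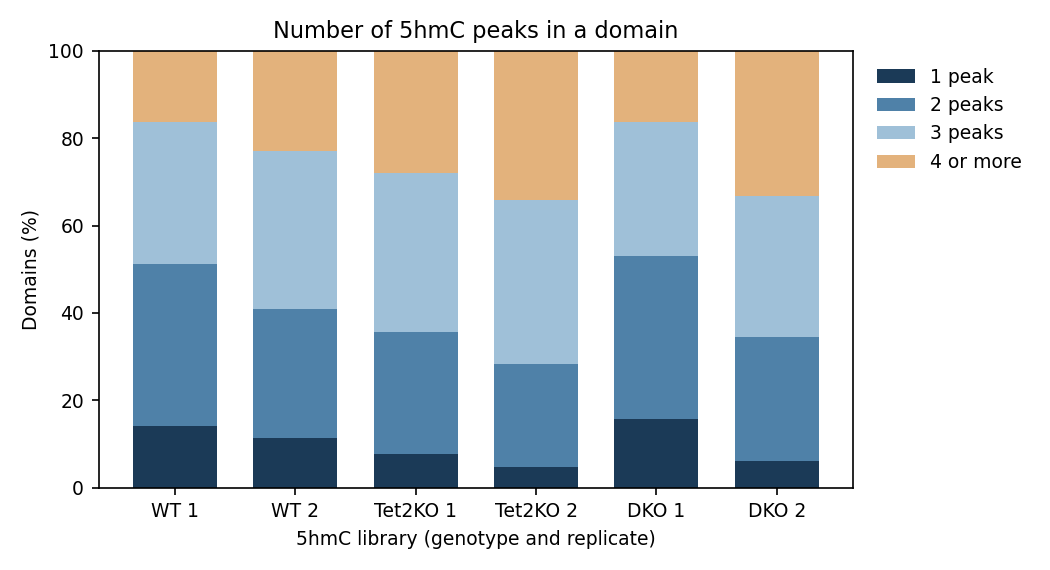
Percent of the 1265 domains (vertical axis, 0 to 100%) that hold 1, 2, 3 or at least 4 peaks in each 5hmC library (horizontal axis). Domains of 1 peak make up 14.2% and 11.4% for WT, 7.83% and 4.74% for Tet2KO, and 15.7% and 6.17% for the DKO libraries, which differ most within a genotype.

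Only 6 domains were 1 unbroken peak in all 6 lists, whereas 833 were split in every list and 432 were unbroken in at least 1. The widest of the 6, on chr1:90152375-90162357 (9983 bp), was covered to 100% in WT 1, 45.6% in WT 2, 49.0% and 61.6% for Tet2KO and 79.9% and 46.8% for DKO. Its full width was that of the WT 1 peak, and a stretch of 4521 bp was shared by all 6 lists. The next, on chr5:125616579-125621488 (4910 bp), was covered to between 87.1% and 98.1% and shared 4139 bp. The third, on chr9:56104637-56109108 (4472 bp), was covered to 92.6% and 90.7% for WT, 82.3% and 41.5% for Tet2KO and 84.9% and 65.2% for DKO.

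The domains split into most peaks were wide ones. The chromosome 11 domain at 95205506 to 95222671 was cut into 9 and 10 peaks by the WT lists, 12 and 13 by the Tet2KO lists and 7 and 11 by the DKO lists, a mean of 10.3. Those on chr9:116070441-116083340 (12900 bp) and chr5:134690393-134704939 (14547 bp) held means of 9.67 and 9.17 peaks. In the chromosome 11 domain both Tet2KO libraries had more peaks and lower coverage, 81.7% and 76.5%, than the other 4 libraries, which covered 88.7% to 94.6%.

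Many breaks were short. The median gap between peaks inside a domain was 99 and 117 bp for WT, 145 and 150 bp for Tet2KO and 102 and 125 bp for DKO, and gaps of 100 bp or less made up 37.7% to 50.4% of all gaps in a library. Gaps took 6.19% and 7.98% of the span between a domain's first and last peak for WT, 11.6% and 13.2% for Tet2KO and 6.16% and 10.3% for DKO. Missing length at the domain ends was 6.09% and 6.99% of the domain for WT, 10.5% and 10.4% for Tet2KO and 6.58% and 8.35% for DKO. Both sources of uncovered length were thus larger in the Tet2KO libraries than in any other. The exact permutation test of knockouts against WT gave p = 0.333 for gaps and p = 0.2 for ends (adjusted p = 0.48 for both). It could not reach 0.05 for either.

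The gaps coincided in part between libraries. Of the bases uncovered in either of 2 libraries, 28.6% were uncovered in both for the WT pair, 36.0% for the Tet2KO pair and 32.0% for the DKO pair. The highest share was between genotypes, 37.5% for Tet2KO 2 and DKO 2. Sharing in covered bases ran the other way: the Tet2KO pair shared 77.1% of the bases covered in either, the lowest of all 15 pairs, against 84.5% for the WT pair and 83.2% for the DKO pair. A pair of libraries with more uncovered bases shares more of them by count alone, so these shares are descriptions.

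Coverage along the domains was highest in the middle. Averaged over domains, the middle 60% of the length was covered to 91.0% and 88.8% for WT, 82.9% and 81.3% for Tet2KO and 90.9% and 85.7% for DKO. The outermost 5% at each end was covered to 62.5% and 58.3% for WT, 48.7% and 46.0% for Tet2KO and 61.7% and 51.7% for DKO. The Tet2KO libraries were the lowest at both the ends and the middle. Merged regions start and stop where the outermost list does, so a fall toward the ends follows from the way domains were built.

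**Figure D4:**
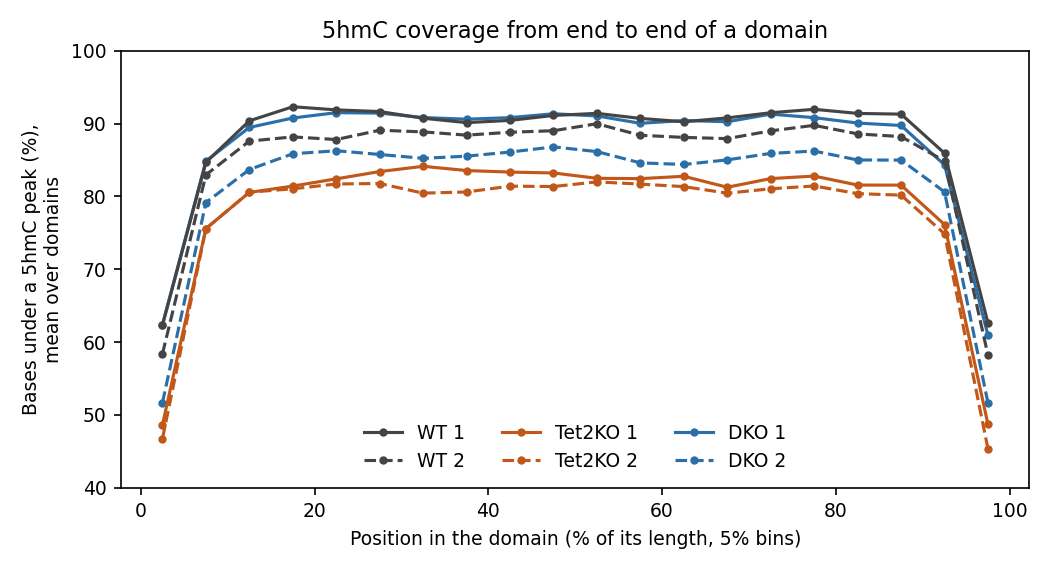
Mean percent of bases under a 5hmC peak (vertical axis, from 40 to 100%) across the 1265 domains scaled to one length and cut into 20 bins (horizontal axis, percent of domain length), with 1 line per library. All 6 lines drop at the ends, and the Tet2KO lines run below the others through the middle, where they cover 82.9% and 81.3% against 85.7% to 91.0%.

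Base by base, 60.1% of the domain length was covered in all 6 lists, 13.5% in 5, 8.61% in 4, 6.96% in 3, 5.93% in 2 and 4.86% in 1. All but 1 of the domains had some stretch covered in all 6 lists. The longest such stretch had a median of 1317 bp, was at least 2000 bp in 209 domains and at least 4000 bp in 10. A domain was thus typically a chain of shared segments joined by parts that some lists lacked.

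Bases covered in both WT lists and in neither Tet2KO list added up to 290.0 kb (4.26% of the domain length), and the reverse to 66.3 kb (0.975%). For DKO against WT, 165.0 kb were covered in both WT lists and neither DKO list, and 117.7 kb in both DKO lists and neither WT list. Bases covered in both DKO lists and neither Tet2KO list came to 199.9 kb, against 47.8 kb for the reverse. Of the bases missing from both Tet2KO lists, 106.0 kb were covered in all 4 lists of WT and DKO. These were mostly short: of 1214 such stretches, 34 reached 500 bp, the longest being 1049 bp on chr1:184040908-184041956. Stretches of at least 500 bp numbered 28 where both WT lists but no knockout list had a peak, 13 where all 4 knockout lists but no WT list had one, and 8 where WT and Tet2KO but not DKO had one. The longest of the first kind was 1254 bp on chr8:96885330-96886583. These base and stretch counts were not made for the other constant regions, where Tet2KO also covered less than WT. Whether they are particular to the domains was not tested.

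Coverage was higher in the wider domains in every library. In WT 1 it was 86.7% in domains of 4000 to under 5000 bp and 91.7% in those of 8000 bp or more, in Tet2KO 1 77.0% and 84.4%, and in DKO 1 86.0% and 92.3%. Tet2KO minus WT was -9.21 points in the narrowest class, -8.43 points from 5000 to under 6000 bp, -7.29 points from 6000 to under 8000 bp and -7.15 points in the widest. Tet2KO was lower than WT in each class, by somewhat less in the wider ones.

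To see values in lists that had not chosen the domains, the rule was applied to 3 lists and the others were measured. The lists numbered 1 gave 816 domains, of which 815 held a peak in all 3 lists numbered 2, and these covered 87.7% in WT 2, 80.7% in Tet2KO 2 and 85.2% in DKO 2. The lists numbered 2 gave 557 domains, all with a peak in every list numbered 1, and these covered 91.5% in WT 1, 84.6% in Tet2KO 1 and 91.8% in DKO 1. In both cases Tet2KO was the lowest, while DKO was below WT in the first and 0.244 points above it in the second.

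5mC was not used to choose the domains. At least 1 5mC peak touched 69.8% of the domains in WT 1, 73.6% in WT 2, 75.7% in Tet2KO 2, 78.1% in DKO 1 and 73.0% in DKO 2. In the other constant regions the share was 26.6% to 31.9%, and in those of 2000 to under 4000 bp it was 44.8% to 52.4%. A longer region has more room for a peak, so the covered share of bases is the fairer measure. 5mC peaks covered 11.5% and 11.6% of the domain length in WT, 12.5% in Tet2KO 2 and 12.3% and 12.5% in DKO, against 8.75% to 9.58% of the other constant regions and 9.83% to 10.8% of those of 2000 to under 4000 bp. The 5 kb on each side of the domains were covered to 7.24% to 7.71%.

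5mC coverage was higher in the domains than in the other constant regions in 5 of 5 lists, by a mean of 2.84 points. It was higher than in the regions of 2000 to under 4000 bp by 1.75 points and than in the flanks by 4.59 points, again in 5 of 5 lists. Each of these had an exact two-sided sign-flip permutation p of 0.0625, the smallest that 5 lists allow (adjusted p = 0.0859 over 11 tests), so the design could not reach 0.05.

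Within the domains, 5mC peaks lay more often where 5hmC peaks were shared. Bases covered in all 6 5hmC lists were under a 5mC peak for 13.9% and 14.3% in WT, 15.3% in Tet2KO 2 and 15.3% in both DKO lists. Bases covered in 4 or 5 lists had 8.85% to 9.62%, and those covered in 1 to 3 lists had 6.05% to 6.97%. The 3 classes did not overlap in any list, and the lowest class was also below the flanks.

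**Figure D5:**
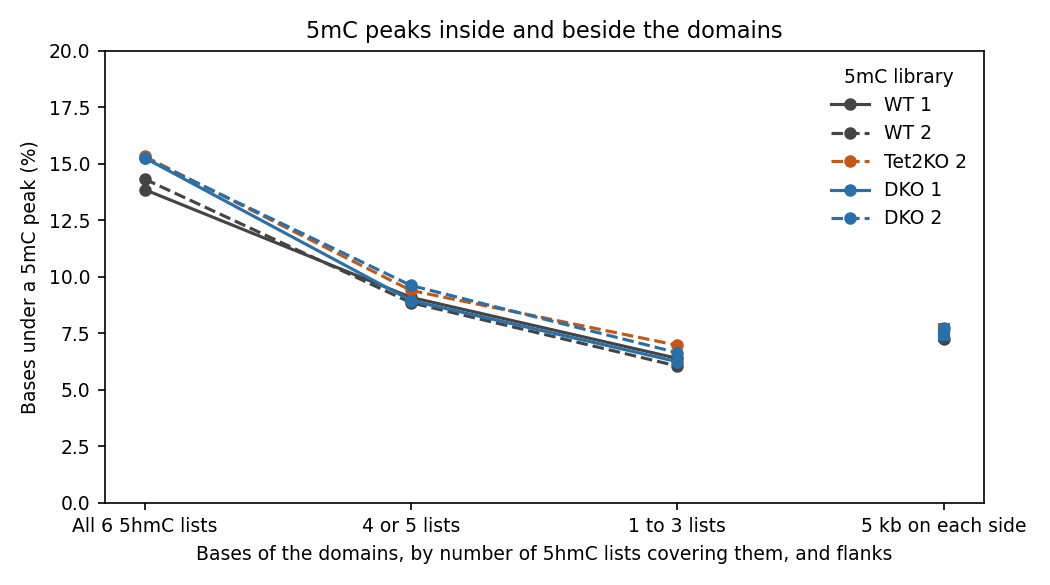
Percent of bases under a 5mC peak (vertical axis, from 0 to 20%) for 3 classes of domain bases, by the number of 5hmC lists covering them, and for the 5 kb on each side, with points for the 5mC libraries, joined by a line within each library. In every library the value is highest, 13.9% to 15.3%, where all 6 5hmC lists have a peak.

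A 5mC peak was present in all 5 lists in 757 domains (59.8%) and in none in 163 (12.9%). The domain with the highest mean 5mC coverage, on chr8:74207510-74211521, was covered to 78.8% and 75.3% in WT, 85.6% in Tet2KO 2 and 82.8% and 88.6% in DKO. Its 5hmC coverage was 91.5% and 85.8% for WT, 66.9% and 64.8% for Tet2KO and 90% and 53.9% for DKO, so much of its length lay under peaks of both marks. The next were on chr2:155455758-155459889 and chr5:109979783-109986201, with mean 5mC coverage of 77.4% and 74.4%. At the other end, the widest domain that was unbroken in all 6 lists, on chromosome 1, had no 5mC peak in any list.

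Both DKO lists covered more of the domains with 5mC peaks than both WT lists, by a mean of 0.813 points (exact two-sided permutation p = 0.333, the smallest that 2 lists against 2 can give, adjusted p = 0.407). In the other constant regions 5mC coverage was likewise 9.53% and 9.49% in DKO and 8.75% and 8.86% in WT. The share of domains with a 5mC peak differed by 3.83 points, and its groups overlapped (exact permutation p = 0.667). A limma fit over 21167 constant regions with a 5mC peak in at least 2 lists called 0 of the 1015 domains among them, and 0% of all those regions, for DKO against WT. At an unadjusted p under 0.05 it held 16 domains (1.58%, against 7.38%). Leaving out DKO 2, whose list of 120243 5mC peaks was the shortest, left DKO 1 alone, whose list of 147934 was the longest. The median limma difference in the domains was then 0.0132 on the arcsine scale, against 0.0136 with both DKO lists.

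The domains were unevenly placed. Chromosomes 5 and 11 held 132 each, chromosome 8 held 107 and chromosome 17 held 88, while chromosome 18 held 25 and chromosome 3 held 26. Per 1000 constant regions, chromosome 8 had 32.2 domains, chromosome 5 had 28.8 and chromosome 3 had 9.27, against 20.6 over all 19. Counts per 100 Mb ran from 16.3 on chromosome 3 to 108 on chromosome 11. The order by constant regions and by length differed, with chromosome 8 first by one and chromosome 11 by the other.

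Domains also lay near each other. The median distance from a domain to the next nearest domain was 27353 bp, 34.8% had another within 10 kb and 66.4% within 100 kb. From constant regions of 2000 to under 4000 bp, the nearest domain was at a median of 143948 bp, with 16% within 10 kb and 44.5% within 100 kb. From a domain, the nearest other 5hmC region was at a median of 186 bp, against 478 bp from the other constant regions. It lay within 1 kb for 91.5% of the domains and 69.6% of the other constant regions, so close neighbours were common to both.

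By windows of 1 Mb, 507 held a domain, and the 158 that held 3 or more contained 810 domains (64.0%). The fullest were on chr8:122000001-123000000 with 17 domains, chr10:79000001-80000000 with 16, and chr5:115000001-116000000 with 13, a number also reached on chr8:125000001-126000000. Joining domains at most 1 kb apart gave 68 chains of 140 domains. The longest chain took in the widest domain and 1 neighbour, on chr8:123065105-123100804, and measured 35700 bp. The genes at these positions were not analysed here.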

How the data were processed

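The authors deposited 1 list of peaks per library, in BED form with the authors' score in the fifth column. Per the submitters' processing notes, the tools were MACS 1.4.2, TopHat2 2.0.8, CASAVA 1.4, Cuffdiff 2.2.1 and Bowtie 0.12.9 and the build mm9, without a role for each. The lowest deposited score was 50, which in the form of -10 log10 p stands for 1e-05. The sources used here do not give read depth, control libraries or duplicate removal, so no interval from counting was possible. 5hmC peaks on chromosomes 1 to 19 were merged (Python 3.11.15, numpy 2.4.6, pandas 2.3.3), and covered length, gaps and peak numbers were measured per library. After an arcsine square root transformation, covered fractions were fitted by limma 3.58.1 (R 4.3.3) with a trended prior variance, over all constant regions for 5hmC and over those with a 5mC peak in at least 2 lists for 5mC, with a Benjamini-Hochberg threshold of 0.05. The fit was tested on simulated data. Single values were tested by exact permutation over libraries. Domains named in the text were the 5 widest, 3 on each side of the threshold, the 3 with the smallest limma p per contrast and direction, the 3 most split, the 3 widest unbroken in all 6 lists, the 3 with most 5mC, and the 3 fullest windows of 1 Mb. Positions of single stretches were named after their values were seen. The members, lists and tests were chosen with earlier results of these data known. Replicate numbers were not treated as pairs in the main tests. Region by region, the correlations of the difference between numbers 1 and 2 across genotypes lay between -0.0188 and 0.0236 in the domains. A shift common to all regions does not enter these correlations. Number 1 covered more of the domains than number 2 in each genotype: 88.1% and 85.6% in WT, 79.1% and 77.7% in Tet2KO, 87.7% and 82.2% in DKO. Whether same-numbered libraries were handled together was not tested. The title of the Tet2KO 5mC sample carries the number 2 and its file another number; the title was followed.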

Additional observations from a re-analysis of the deposited data

How the results depend on the processing

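With 2 libraries per genotype and unknown depth, differences of a few points cannot be told apart from differences between libraries. Tet2KO minus WT in covered length stayed negative in 13 of 13 alternatives, from -9.67 to -6.89 points, and in peaks per domain positive, from 0.235 to 0.575. Among these, leaving out DKO replicate 1 or 2 could not change either difference, and both stayed at the main values of -8.42 points and 0.417 peaks. DKO minus WT was reversed to 0.244 points and -0.0251 peaks when domains came from the lists numbered 2 and values from those numbered 1. With 1 library left out it ran from -4.65 to 0.824 points and from -0.151 to 0.421 peaks, and the reversals came without DKO replicate 2. Leaving out a Tet2KO library could not change DKO minus WT. The limma fit called 0 domains for 5hmC in each contrast under all 13 alternatives. With replicate number as a block, 103, 39 and 53 domains had an unadjusted p under 0.05 for Tet2KO against WT, DKO against WT and DKO against Tet2KO, and 0 were called. These were 8.14%, 3.08% and 4.19% of the domains, against 9.91%, 7.23% and 6.21% of all constant regions. A trend of the prior variance on region width, added after the data were seen, gave 227, 124 and 140, or 17.9%, 9.80% and 11.1% of the domains against 8.85%, 6.56% and 5.10%, so that the domains exceeded the background there. So they did for Tet2KO against WT on the untransformed fraction (11.7% against 9.30%) and at a score of at least 100 (8.77% against 8.36%). For 5mC, the replicate block also called 0 domains, and leaving out 1 library called 0 to 9. The share of domains with a 5mC peak exceeded that of other constant regions by 36.8 points at a 5mC score of at least 100, 35.8 at a minimum width of 3000 bp and 50.7 at 5000 bp. For 5mC coverage these were 2.48, 2.39 and 3.65 points, and DKO minus WT became 0.671 points at the higher score. Over all results, 168 of 199 alternatives kept the direction and call and stayed within 1 SD between libraries, or 1.5 times for a count. These include differences that the library left out could not change. They also include counts of 0 called. For Tet2KO against WT the simulated fit detected only near-complete loss of coverage, and the other contrasts and the 5mC fit were not simulated. The total is therefore no measure of robustness. The cause of the changes in the remaining alternatives was not tested.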

Other observations

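Of 1271 autosomal 5hmC regions of at least 4000 bp, 6 were not present in all lists. A group of 3 lacked a peak in 1 Tet2KO list: chr10:80723593-80727817 and chr15:88650625-88654647 lacked Tet2KO 2, and chr10:126640484-126644638 lacked Tet2KO 1. In the first of these the other 5 libraries covered 95.5% and 67.6% (WT), 60.5% (Tet2KO 1) and 74.3% and 48.7% (DKO). The other 3 were single peaks of 1 Tet2KO list. Tet2KO 2 alone had peaks on chr2:77770692-77775531 and chr2:77775888-77781105, which lie next to each other. Tet2KO 1 alone had 1 on chr11:3030528-3038062, of 7535 bp. All 6 exceptions involved 1 Tet2KO list and never both, but 3 were absences and 3 were single peaks, which are opposite patterns. Whether such exceptions differ by genotype was not tested.

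The X chromosome was outside the rule. Of its 1342 5hmC regions, 135 were constant. None reached 4000 bp, and the widest constant one measured 3578 bp.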
